A study of Mus musculus with 12 samples.

Results

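A set of 10 genes of the immediate-early class was examined in cultured mouse neural progenitor cells (NPCs): the zinc-finger factors Egr1, Egr2 and Egr3, the orphan nuclear receptors Nr4a1, Nr4a2 and Nr4a3, the immediate-early response genes Ier2 and Ier3, and the dual-specificity phosphatases Dusp1 and Dusp5. They were chosen by name, as targets of the kind that ternary complex factors drive, and every probe that the array carries for them was used. The array held 55681 probes, of which 28026 could be named, for 21154 genes. All 10 genes were on it, with 11 probes in all, because Nr4a2 has 2.

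Immediate-early genes are transcribed within minutes of a growth factor or a depolarizing stimulus, without the need for new protein synthesis. Srf (serum response factor) binds CArG boxes in many of their promoters, and there it can recruit ternary complex factors of the Ets family (Elk1, Elk3 and Elk4), which Erk kinase phosphorylates. Srf also works with Mkl1 (Mrtfa), a cofactor that monomeric actin keeps out of the nucleus, and this arm drives smooth-muscle and cytoskeletal genes such as Acta2 and Cnn1. Creb, which binds the cAMP response element (CRE), is another activator of many immediate-early genes, those of the Nr4a family among them. In neural cells the Egr and Nr4a genes are widely used as markers of recent stimulation.

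All cells were mouse NPCs differentiated in culture from pluripotent cells, kept on gelatin in medium with EGF and basic FGF at 10 ng/ml each, so the controls too were under growth factors that signal through Erk. In the overexpression experiment, retrovirus brought in EGFP (the control), Mkl1 or Srf. In the knockdown experiment the virus carried a hairpin RNA, against EGFP in the control (shEGFP) and against β-actin (Actb) in shActb_1 and shActb_2, which differ in the hairpin used. Each of the 6 groups had 2 arrays. The study worked with an NPC line and with a derivative of it that carries inducible reprogramming genes, made by way of induced pluripotent cells, and which of them was used for the arrays is not given in the sources used here. The study calls the duplicates of its Actb knockdown technical, and nothing in the labels says that any duplicates came from separate cultures, so the p-values below measure only the spread between arrays, whose number limits the precision. A level is log2 of the processed signal minus the 75th percentile of its array, so that 0 is the 75th percentile of the array.

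Between 59.3% and 72.5% of probes per array were well above background, and duplicates correlated at r = 0.993 to 0.998, with the widest differences between the EGFP arrays (2.75% of probes over 2-fold apart). Both Srf probes were lower on the arrays labelled Srf than on the EGFP arrays, by -2.46 and -1.40 log2 units, which goes against that label. By the methods of the study the vector carries the open reading frame without the untranslated regions, and whether the probes lie in it is not given in the sources used here. Acta2, a target of Srf, rose on the same arrays (3.37), but of 29 targets of the actin and Mkl1 arm tested there, 12 rose and 5 fell. Throughout, "with Srf" means on the arrays labelled Srf. The Mrtfa probes did not pass the test on the arrays labelled Mkl1, while Actb fell with both hairpins (-0.53 and -0.65). All overexpression arrays were on slide 1, with EGFP in another row than Mkl1 and Srf. Those of shEGFP and shActb_1 shared slide 2, and shActb_2 was alone on slide 3. The second hairpin and its slide therefore cannot be told apart, nor can EGFP and its row. Of 10 NPC markers, 9 were well above background on all 12 arrays, and the exception was Olig2 (1 array). Most fibroblast markers (6 of 7), all 5 oligodendrocyte markers and 3 of 5 embryonic stem cell markers were well above background on all arrays as well.

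The set of RefSeq promoters used here (GRCm38.p6), from 250 bases before to 50 after a start site, covered 7 of the 10 genes. Egr1, Egr3 and Ier2 had no entry in this set, although RefSeq transcripts named their probes. The promoters shown are those of the gene with the widest rise (Dusp5), of the one Egr gene with an entry, and of 2 genes with CRE matches, so that the sites named in the results can be seen. In the first pair, capitals mark CArG boxes, the 10-letter site that Srf binds. In the second pair, they mark the CRE core TGACG on either strand.
Dusp5, chr19:53528895-53529194, plus strand: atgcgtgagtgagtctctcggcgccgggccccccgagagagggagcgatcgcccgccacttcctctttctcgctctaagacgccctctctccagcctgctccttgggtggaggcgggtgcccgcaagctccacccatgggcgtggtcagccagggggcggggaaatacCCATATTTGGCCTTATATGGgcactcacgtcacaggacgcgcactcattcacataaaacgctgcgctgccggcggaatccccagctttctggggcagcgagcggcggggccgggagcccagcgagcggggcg
Egr2, chr10:67537619-67537918, plus strand: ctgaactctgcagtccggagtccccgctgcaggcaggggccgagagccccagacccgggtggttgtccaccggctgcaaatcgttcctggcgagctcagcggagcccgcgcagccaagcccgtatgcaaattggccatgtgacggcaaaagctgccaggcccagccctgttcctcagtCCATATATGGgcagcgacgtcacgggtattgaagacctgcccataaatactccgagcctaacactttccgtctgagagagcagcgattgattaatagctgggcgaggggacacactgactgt
Dusp1, chr17:26508423-26508722, minus strand: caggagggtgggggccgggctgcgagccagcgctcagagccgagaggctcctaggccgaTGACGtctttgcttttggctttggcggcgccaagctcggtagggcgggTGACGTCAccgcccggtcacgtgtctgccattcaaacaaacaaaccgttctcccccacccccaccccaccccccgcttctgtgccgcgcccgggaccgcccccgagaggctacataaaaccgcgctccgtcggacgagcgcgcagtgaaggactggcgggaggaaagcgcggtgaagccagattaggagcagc
Nr4a1, chr15:101266596-101266895, plus strand: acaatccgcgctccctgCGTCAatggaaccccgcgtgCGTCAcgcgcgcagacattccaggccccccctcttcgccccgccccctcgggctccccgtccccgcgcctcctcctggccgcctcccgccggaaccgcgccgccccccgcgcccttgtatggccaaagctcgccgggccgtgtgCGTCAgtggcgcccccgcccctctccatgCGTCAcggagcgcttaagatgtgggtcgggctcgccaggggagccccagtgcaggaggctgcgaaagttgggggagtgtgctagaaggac

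The Dusp5 promoter held 2 CArG boxes side by side, which began 82 and 72 bases before the start site, and an Ets core (GGAA) began 90 bases before it. Egr2 had a CArG box at 4 of its 5 listed start sites, in the promoter shown 72 bases before the start. Exact CArG boxes thus occurred in 2 of the 7 genes, against 1.81% of the 27025 genes with a promoter. Sites that differ from a CArG box by 1 letter were found in Egr2, Nr4a1, Ier3 and Dusp1, and in 22.5% of all genes. Among 31 actin-Mkl type targets of Srf, such as Acta2, 26 had a promoter and 9 of these had an exact CArG box (34.6%). The CRE core was found in 6 of the 7 genes, Ier3 being the exception, against 23.0% of all genes. The full CRE (TGACGTCA) was in the Dusp1 promoter alone of the 7, 143 bases before the start, and in 2.03% of all genes. It overlaps the CRE core matches there. GGAA says little, since it was found for 96.5% of all genes. These are letter matches on either strand in a short window and not evidence of binding.

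**Figure D1:**
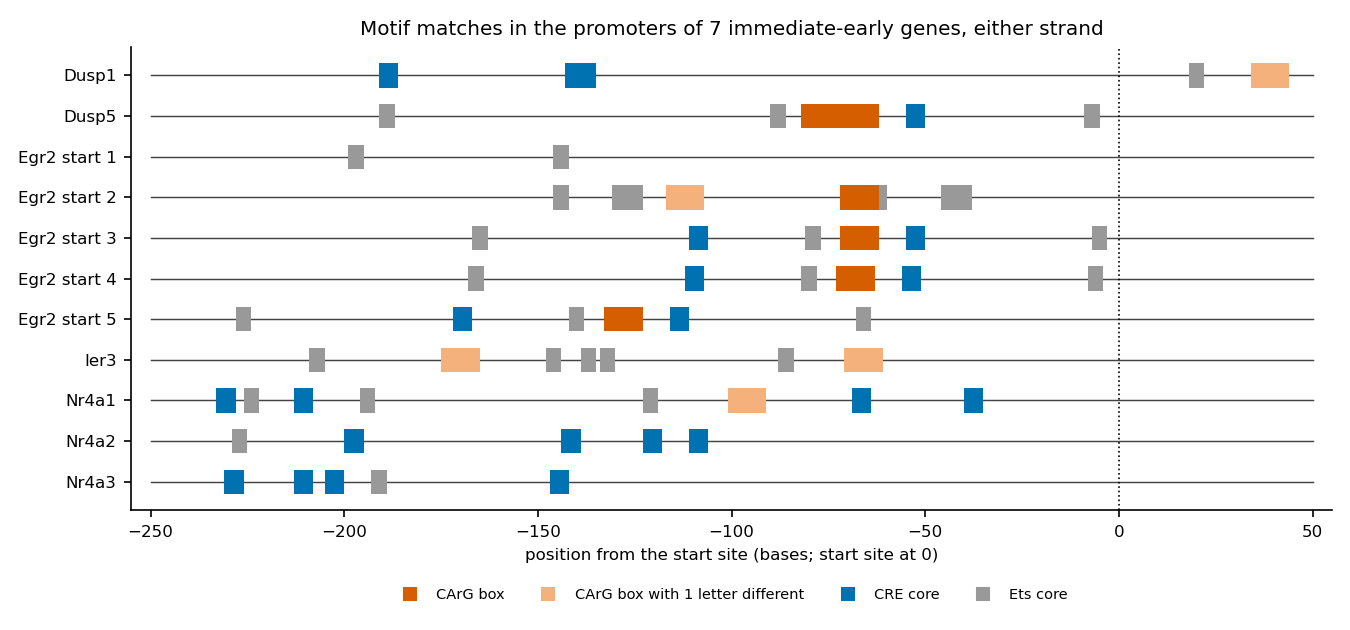
Positions of motif matches (horizontal axis, bases from the start site, which is at 0) in the 11 RefSeq promoters of 7 immediate-early genes, 1 line per promoter. Orange boxes are exact CArG boxes, which are present in Dusp5 and at 4 of 5 start sites of Egr2, light orange boxes differ from one by 1 letter, blue boxes are CRE cores and grey boxes are Ets cores.

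The arrays labelled Srf had higher levels of Egr1, Ier3, Dusp1, Dusp5 and Nr4a1 than the EGFP arrays, and those labelled Mkl1 shared the last 4 of these rises but had a lower level of Egr1. The same 4 genes rose with the second Actb hairpin, Dusp5 by far the most, and none rose with the first. Throughout, a gene is said to rise or fall where limma's adjusted p was under 0.05 over all probes tested, and it counts as called where the change was over 2-fold as well. A probe was tested where it was well above background on both arrays of a compared group. Srf and Mkl1 share the EGFP arrays, and the hairpins share the shEGFP arrays, so likenesses within each pair of comparisons are not independent.

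Against EGFP, 2 of the 9 genes tested were called with Srf (Egr1 and Dusp5), where 5.54% of all probes were, and 5 rose and none fell, where 12.9% of all probes rose and 12.5% fell. With Mkl1, 1 of 8 was called (Dusp5; 2.78% of probes), 4 rose and 1 fell (12.4% and 8.34% of probes). With shActb_1 none of 9 was called or passed in limma's fit, also at an unadjusted p under 0.05 (1.61% of probes were called, 5.29% rose and 4.12% fell). With shActb_2, 1 of 8 was called (Dusp5; 6.31% of probes), 4 rose and none fell (21.7% and 18.6% of probes). In a fit of the compared arrays alone, Egr1 and Dusp1 still passed with Srf and the other 3 did not (adjusted p = 0.0627 to 0.104), and none of the 5 passed with Mkl1 (0.0887 to 0.182). The ninth gene, with Srf and with shActb_1, is Egr3, which was tested there only because it was above background on the Srf or shActb_1 arrays. The median log2 fold change of the 8 genes tested in every comparison was 0.67 with Srf, 0.49 with Mkl1, 0.07 with shActb_1 and 0.34 with shActb_2, beside -0.01, 0.02, 0.02 and 0.07 over all named genes. Arrays of the compared groups did not overlap for 6, 7, 1 and 8 of these 8 genes, and for 63.1%, 61.4%, 57% and 76.4% of all probes.

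**Figure D2:**
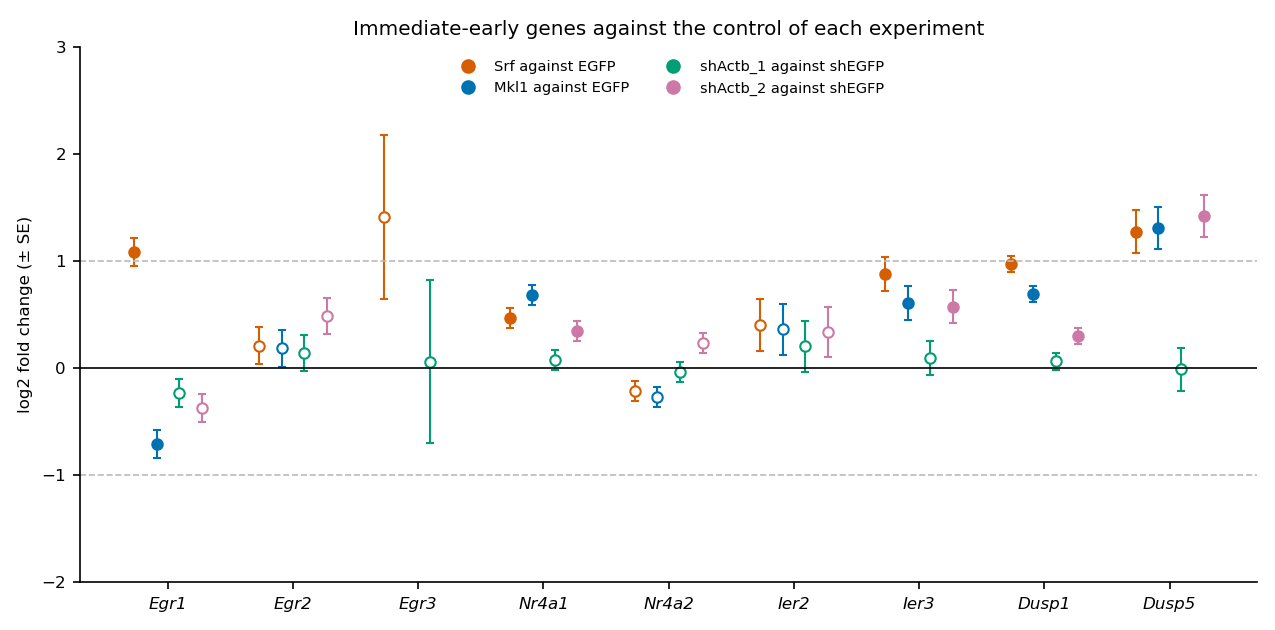
Log2 fold change (vertical axis, ± SE from limma) of the immediate-early genes in each comparison with its control, 2 arrays per group. Filled points passed the adjusted p of 0.05, open points did not, dashed lines mark 2-fold, and genes not tested in a comparison have no point. Dusp5 lies above the 2-fold line in 3 of 4 comparisons and Egr1 moves in opposite directions with Srf (1.08) and Mkl1 (-0.71).

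Egr1, the founding member of the Egr family and a direct target of the Elk factors in many cells, was at levels of 1.94 and 2.15 on the EGFP arrays, 3.03 and 3.24 on those labelled Srf, and 1.34 and 1.33 on those labelled Mkl1. The 3 groups did not overlap, with Srf at the top and Mkl1 at the bottom. In the knockdown experiment the levels were 2.0 and 2.27 with shEGFP, 1.78 and 2.03 with shActb_1, and 1.81 and 1.72 with shActb_2. There shActb_1 overlapped its control and shActb_2 lay just under it. Egr1 rose 2.12-fold with Srf (log2 1.08, SE 0.13, adjusted p = 0.00109 by limma) and fell by 0.71 on the log2 scale with Mkl1 (SE 0.13, adjusted p = 0.0101). Without the second Srf array or the first EGFP array its rise was 0.98, under 2-fold, and without the second Mkl1 array its fall had an adjusted p of 0.0674. Its values with the hairpins were -0.23 (adjusted p = 0.383) and -0.37 (adjusted p = 0.0589), neither of which passed. With shActb_2 the 95% interval was -0.68 to -0.06, and under 4 of 12 alternatives the value did pass (adjusted p = 0.0216 to 0.0422).

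Egr1 with Srf and with Mkl1 was also compared directly. The EGFP mean drops out of this comparison, so it does not test the fall with Mkl1 by itself. Between the arrays labelled Srf and Mkl1, where 1 of 9 genes was called and 2 passed (5% and 25.6% of probes), Egr1 differed 3.47-fold (log2 1.79, SE 0.13, adjusted p = 9.72e-05 by limma), and it passed under all 13 alternatives (1.69 to 1.90). Dusp1 differed by a much smaller 0.28 (SE 0.08, adjusted p = 0.0333 by limma), which passed but was not called. The pass was lost when any 1 of the 4 arrays was left out. It was also lost with quantile normalization, without a filter on dim probes, with the compared arrays only and within slide 1 (adjusted p = 0.0524 to 0.123). None of the other 7 passed. For Dusp5 the interval of the difference was -0.50 to 0.43, for Ier3 -0.10 to 0.63 and for Nr4a1 -0.43 to 0.00.

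Egr2, which controls myelination in Schwann cells and hindbrain segmentation, did not pass in any comparison. Its levels were -1.93 and -1.67 with EGFP, -1.64 and -1.59 with Mkl1, -1.76 and -1.42 with Srf, -2.30 and -1.83 with shEGFP, -1.93 and -1.91 with shActb_1, and -1.59 and -1.56 with shActb_2. Mkl1 and shActb_2 lay above their controls, Mkl1 by little, and the other groups overlapped theirs. The log2 fold changes were 0.21 with Srf, 0.19 with Mkl1, 0.14 with shActb_1 and 0.49 with shActb_2 (adjusted p = 0.404, 0.473, 0.742 and 0.0553 by limma). Under 6 of 12 alternatives the value with shActb_2 did pass (adjusted p = 0.0197 to 0.0491).

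Egr3, an Egr factor of muscle spindles and activated lymphocytes, was near background. It was well above background on both arrays labelled Srf (-4.78 and -4.49), both with shActb_1 (-5.00 and -5.09), 1 with shEGFP (-4.74, the other at -5.48) and 1 with shActb_2 (-5.17, the other at -7.22), but on none with EGFP (-6.97 and -5.12) or Mkl1 (-5.92 and -5.23). The second shEGFP array lay between the 2 labelled Srf, and all the others were lower. The log2 difference of Srf was 1.41 from EGFP (interval -0.37 to 3.19, adjusted p = 0.217 by limma) and 0.94 from Mkl1 (-0.84 to 2.72, adjusted p = 0.431), and neither passed. The dim arrays give only an upper limit for their own level, and they lay far apart. Without the first EGFP array the difference was 0.49, and with normexp background correction 0.25.

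**Figure D3:**
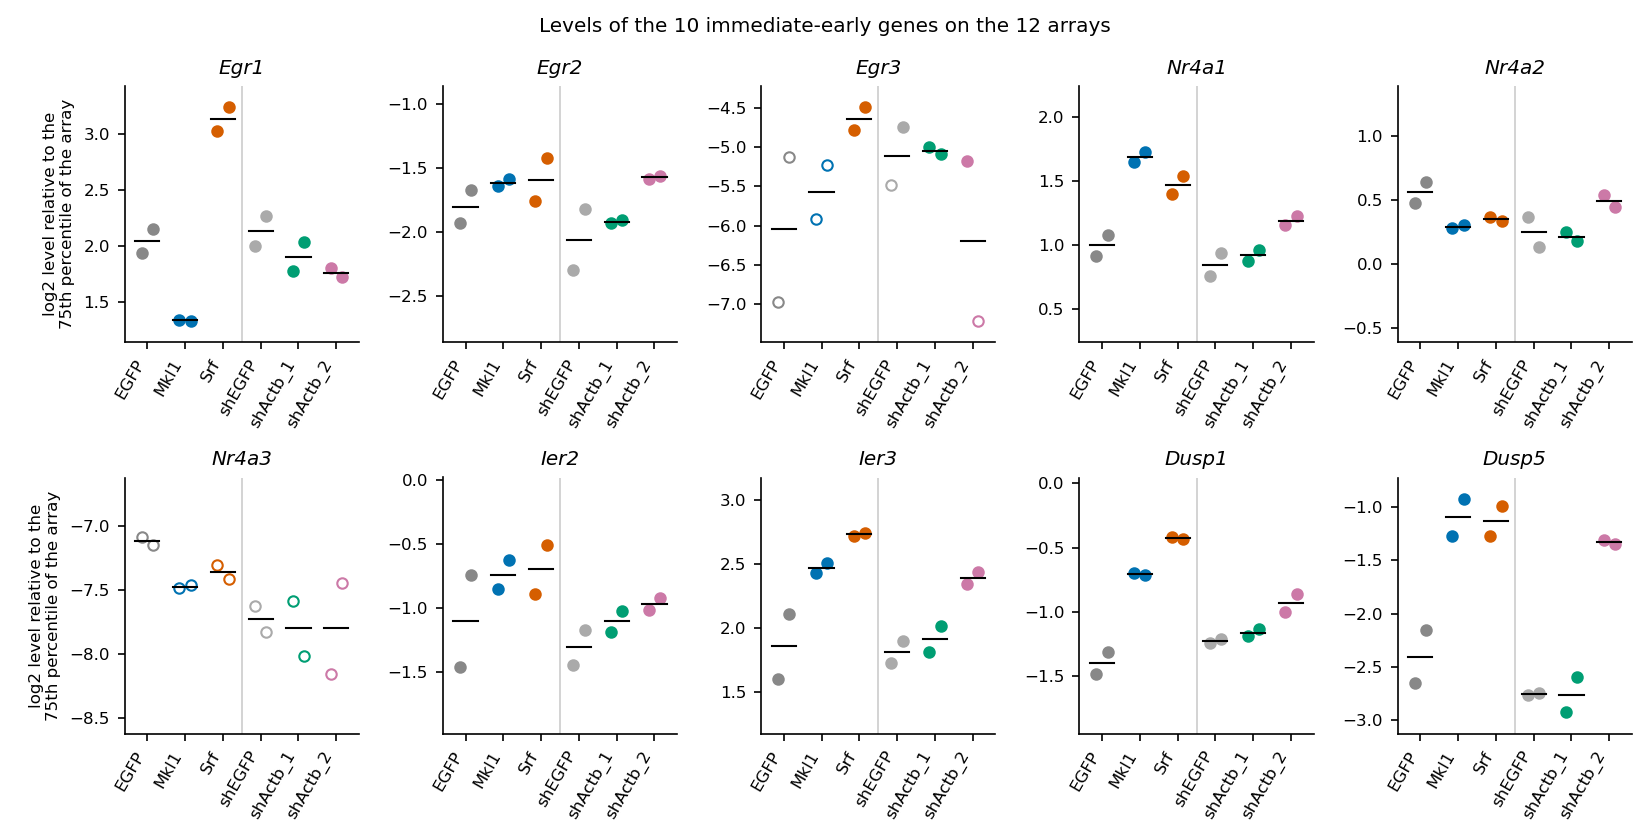
Log2 level relative to the 75th percentile of the array (vertical axis) of each immediate-early gene on the 12 arrays, by group, with the overexpression experiment on the left of each panel and the knockdown on the right. Each point is 1 array, open where the probe was not well above background, and lines are means of 2. Nr4a2 is shown by its brighter probe, every panel has its own range, and the Dusp5 panel shows Mkl1, Srf and shActb_2 between -0.92 and -1.35 and the other groups at -2.16 or lower.

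Among the nuclear receptors, Nr4a1 (Nur77), which is induced by growth factors and acts in T-cell selection, had levels of 0.92 and 1.08 with EGFP, 1.64 and 1.73 with Mkl1, and 1.40 and 1.54 with Srf. In the knockdown it was at 0.75 and 0.93 with shEGFP, 0.88 and 0.96 with shActb_1, and 1.15 and 1.22 with shActb_2. Mkl1, Srf and shActb_2 each lay wholly above their control, and shActb_1 overlapped it. Nr4a1 rose 1.61-fold with Mkl1 (log2 0.69, SE 0.09, adjusted p = 0.00293 by limma). It rose 1.38-fold with Srf (0.47, SE 0.09, adjusted p = 0.00949) and 1.27-fold with shActb_2 (0.34, SE 0.09, adjusted p = 0.0223). The value with shActb_1 was 0.08 (interval -0.14 to 0.29). The rise with Srf was lost without the second Srf array (adjusted p = 0.0736), and that with shActb_2 without either shActb_2 array or the first shEGFP array (0.055 to 0.141) and under 3 further alternatives of 12 (0.0506 to 0.063).

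Nr4a2 (Nurr1), which dopaminergic neurons need, did not rise with any factor. Its brighter probe lay at 0.48 and 0.64 with EGFP, 0.28 and 0.30 with Mkl1, 0.37 and 0.33 with Srf, 0.37 and 0.13 with shEGFP, 0.25 and 0.18 with shActb_1, and 0.54 and 0.44 with shActb_2. Both overexpression groups lay under their control and shActb_2 lay above its own. The log2 fold changes were -0.21 with Srf, -0.27 with Mkl1, -0.04 with shActb_1 and 0.24 with shActb_2, and none passed (lowest adjusted p = 0.0782 by limma). The dimmer probe gave -0.31, -0.46, 0.01 and 0.42, with the same signs but for shActb_1, and did not pass either. Nr4a3 (Nor1), the third member, was not well above background on any array (levels from -8.16 to -7.09) and was not tested.

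Dusp5, a nuclear phosphatase that is specific for Erk and is itself induced by Erk signalling, showed the clearest pattern. It was at -2.66 and -2.16 with EGFP, -1.27 and -0.92 with Mkl1, and -1.28 and -0.99 with Srf. With shEGFP it was at -2.76 and -2.74, with shActb_1 at -2.93 and -2.60, and with shActb_2 at -1.31 and -1.35. The 6 arrays of Mkl1, Srf and shActb_2 all lay above the other 6. The rise was 2.42-fold with Srf (log2 1.27, SE 0.20, adjusted p = 0.00331 by limma), 2.48-fold with Mkl1 (1.31, SE 0.20, adjusted p = 0.00457) and 2.68-fold with shActb_2 (1.42, SE 0.20, adjusted p = 0.0015). With shActb_1 it was -0.01 (interval -0.47 to 0.45). In a fit of the compared arrays alone the adjusted p was 0.0627, 0.0954 and 0.0154.

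The difference between the hairpins was tested as well, with 1 of 9 genes called and no other past the test (5.03% of probes were called and 32.1% passed). Dusp5 was 2.70-fold higher with shActb_2 than with shActb_1 (log2 1.43, SE 0.20, adjusted p = 0.00225 by limma) and passed under all 12 alternatives, from 1.11 to 1.60. Ier3 (0.48, adjusted p = 0.0529), Dusp1 (0.24, adjusted p = 0.0515), Nr4a2 (0.28, adjusted p = 0.0575) and Nr4a1 (0.27, adjusted p = 0.0623) also had higher values with shActb_2, but did not pass. They did under 5, 2, 3 and 4 of 12 alternatives. Actb itself changed by -0.53 and -0.65 with the 2 hairpins. Of 8 heat shock and stress genes, 3 were higher and 2 lower with shActb_2 than with shActb_1. The chaperone Hspa1a (1.16) was called higher and Ddit3 (-1.06), a factor of the unfolded protein response, lower. The part of the slide, of stress or of the hairpin's own sequence in this difference was not tested.

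Dusp1, which inactivates p38 and Jnk as well as Erk, differed in size rather than in order. It was at -1.49 and -1.31 with EGFP, -0.70 and -0.71 with Mkl1, and -0.42 and -0.44 with Srf. In the knockdown it was at -1.25 and -1.21 with shEGFP, -1.19 and -1.14 with shActb_1, and -1.0 and -0.86 with shActb_2. No neighbouring groups overlapped, the order from the top being Srf, Mkl1, shActb_2, shActb_1, shEGFP and EGFP, though shActb_1 lay above shEGFP by only 0.06. Dusp1 rose 1.96-fold with Srf (log2 0.97, SE 0.08, adjusted p = 0.000156 by limma), which is the smallest adjusted p of the 10 genes against EGFP. It rose 1.62-fold with Mkl1 (0.69, SE 0.08, adjusted p = 0.00138) and 1.23-fold with shActb_2 (0.30, SE 0.08, adjusted p = 0.0183). The last rise was lost without the second shActb_2 array or either shEGFP array (adjusted p = 0.0606 to 0.142) and under 3 further alternatives of 12 (0.052 to 0.0917).

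Ier3, which modulates Erk signalling and apoptosis, lay at 1.61 and 2.11 with EGFP, 2.43 and 2.51 with Mkl1, 2.72 and 2.75 with Srf, 1.73 and 1.90 with shEGFP, 1.81 and 2.02 with shActb_1, and 2.34 and 2.44 with shActb_2. Again Mkl1, Srf and shActb_2 were above their controls, and shActb_1 overlapped. Ier3 rose 1.84-fold with Srf (log2 0.88, SE 0.16, adjusted p = 0.00629 by limma), 1.53-fold with Mkl1 (0.61, SE 0.16, adjusted p = 0.0328) and 1.49-fold with shActb_2 (0.58, SE 0.16, adjusted p = 0.0229). The EGFP arrays lay well apart, and without the first of them the value with Mkl1 was 0.36 (adjusted p = 0.0854). The rise with Mkl1 was lost without either Mkl1 array too (0.0948 and 0.166) and within slide 1 (0.11), and the rise with shActb_2 when any array of its comparison was left out (0.051 to 0.13).

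Ier2, a nuclear protein of growth-factor responses, had a wide spread in the controls. It was at -1.46 and -0.74 with EGFP, -0.85 and -0.62 with Mkl1, -0.89 and -0.50 with Srf, -1.45 and -1.17 with shEGFP, -1.19 and -1.02 with shActb_1, and -1.02 and -0.92 with shActb_2. The second EGFP array lay inside both overexpression groups. The log2 fold changes of 0.40, 0.36, 0.20 and 0.34 with Srf, Mkl1, shActb_1 and shActb_2 did not pass (adjusted p = 0.255, 0.317, 0.73 and 0.29 by limma), and they depended on the EGFP arrays. Without the second of these the values with Srf and Mkl1 were 0.76 and 0.72, past the test, and without the first 0.048 and 0.0070.

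The experiments were set against each other within 1 fit, since their groups have no control in common. Each difference is the effect of a factor minus the effect of shActb_1. The second hairpin was not set against the factors in this way. Dusp5 rose by 1.42 with shActb_2, beside 1.27 with Srf and 1.31 with Mkl1. With Srf, 2 of 9 genes were called and 3 passed (5.19% and 14.3% of probes). Egr1 differed by 1.31 (SE 0.19, adjusted p = 0.00443 by limma), Dusp5 by 1.28 (SE 0.28, adjusted p = 0.024) and Dusp1 by 0.91 (SE 0.11, adjusted p = 0.00221). Egr1 and Dusp1 passed under all 16 alternatives. Dusp5 did not with the compared arrays only (adjusted p = 0.0565), nor without the second Srf, the first shActb_1 or either shEGFP array (0.0724 to 0.0864). With Mkl1 none of 9 passed in limma (0.475% of probes were called and 0.997% passed), although 4 had an unadjusted p under 0.05. The largest of these was Dusp5, with a difference of 1.32 (adjusted p = 0.0852) and an interval of 0.65 to 1.98, and it passed under 5 of 16 alternatives.

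Over the 12 arrays, each taken relative to the mean of its own control, Nr4a1, Ier3, Dusp1 and Dusp5 had pairwise Pearson r from 0.80 to 0.92. Ier2 had r from 0.63 to 0.81 with these 4 and Egr2 from 0.33 to 0.68, and the r of Ier2 with Egr2 was 0.76. Nr4a2 had r from -0.57 to -0.11 with the same 4, and Egr1 had r from -0.23 to 0.41 with the other genes. These are descriptions, and the arrays of a group share their treatment and slide. Among 1241 varying genes, those most like Egr1 were Cygb, a globin, Dapk2, a kinase, and Rasgef1b, a Ras exchange factor (r = 0.979, 0.976 and 0.974). These and the genes named after them were chosen for their likeness over the same arrays, so shared directions follow from the choice. Those like Egr1 were all higher with Srf and lower with Mkl1. Cygb, for example, was at 1.24 and -0.82. Most like Nr4a1 were Arc, itself an immediate-early gene of neurons (r = 0.978), Dusp3 (0.964) and Nipal1 (0.958). Most like Ier3 were Fjx1, Clec4d and Mtmr10 (0.969, 0.968 and 0.967). Dusp5 was most like Fxyd5 (0.972), Ereg, an EGF receptor ligand (0.968), and 2810459M11Rik (0.965), and Ereg changed by 1.38 with Srf, 1.45 with Mkl1, 0.30 with shActb_1 and 1.24 with shActb_2.

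A further 30 immediate-early genes, from a list of known members of the class, moved in both directions. Over all probes, 12.9% rose and 12.5% fell with Srf, and 12.4% and 8.34% with Mkl1. With shActb_1 these shares were 5.29% and 4.12%, and with shActb_2 21.7% and 18.6%. Called were 5.54%, 2.78%, 1.61% and 6.31% of probes. The counts of this list and of every later list are to be read beside these shares. With Srf, 9 of the 29 that were above background in both groups rose, 6 fell and 2 were called (Arc, 1.94, and Fos, 1.88, a subunit of the AP-1 factor). Egr4, the fourth Egr gene, was above background on both Srf arrays (-3.93 and -3.42), on 1 Mkl1 array and on none of the other groups, so it was tested only through the group where it is high. Against EGFP it was at least 7.85-fold higher with Srf, with the dim arrays set to the lowest signal that was well above background. With Mkl1, 13 of 29 rose, 4 fell and 5 were called, the largest being Arc (2.77), Fosl1 (1.75), Ptgs2 (1.49) and Npas4 (1.12), while Fos was at -0.20 and did not pass. With shActb_1, 3 of 29 rose and 4 fell, Fos among the latter (-0.99), and with shActb_2 11 rose, 9 fell and 4 were called (Ptgs2, 1.35, Arc, 1.27, Jun, 1.09, and Fosl1, 1.02). The medians were 0.09, 0.24, 0.12 and 0.11. Between Srf and Mkl1 directly, Fos (2.08) was called higher with Srf, and Ptgs2 (-1.84), Fosl1 (-1.20) and Sgk1 (-1.15) lower.

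The actin-Mkl type targets, the other arm of Srf, had their highest median log2 fold change with Mkl1, where the value of Egr1 was lowest. Of those tested, 12 of 29 rose and 5 fell with Srf (median 0.22), 25 of 30 rose with Mkl1 (1.09), 23 of 28 rose and 1 fell with shActb_1 (0.71), and 26 of 30 rose and 2 fell with shActb_2 (0.78). Among those tested against a control are Actc1, Myh11 and Fhl1, which were above background on no EGFP or shEGFP array. Acta2, smooth-muscle actin, changed by 3.37, 6.93, 4.42 and 5.04. Between Srf and Mkl1, 21 of 30 were lower with Srf and 1 was higher (median -1.01). Of the 9 immediate-early genes tested 2 were higher and none was lower (median 0.06, and 0.05 without Egr3). Of all probes 25.6% passed in this comparison, so 2 of 9 is near that share. With shActb_1, 10 of 28 actin-Mkl type targets were called (1.61% of probes were) and none of the 9 immediate-early genes was. None of these 9 passed either, but only 5.29% of all probes rose and 4.12% fell, so that count is near the shares.

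**Figure D4:**
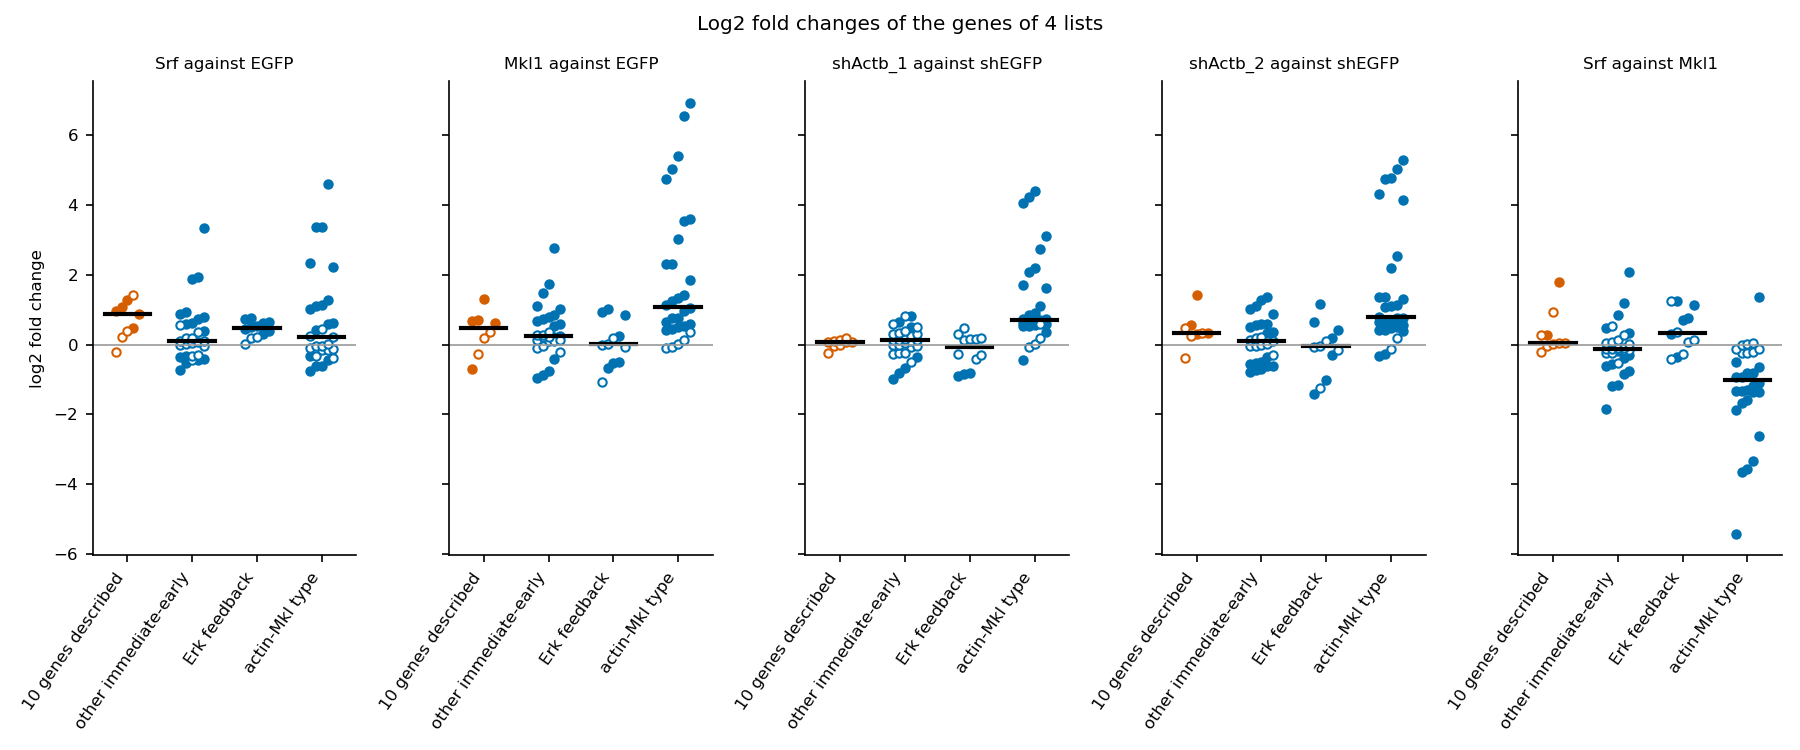
Log2 fold changes (vertical axis) of the tested genes of 4 lists in 5 comparisons, 1 point per gene, filled where the adjusted p was under 0.05, with the 10 immediate-early genes in orange and the other lists in blue. Black bars are medians, and in the comparison of Srf with Mkl1 the actin-Mkl type targets have a median of -1.01 and the immediate-early genes 0.06.

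Genes around the Erk pathway were counted because Egr1 and Dusp5 are known targets of it. Of 12 Erk feedback genes, which Erk induces and which then dampen it, 9 rose with Srf and none fell (median 0.48), led by Spry1 (0.76), Dusp6 (0.73) and Spred3 (0.65). With Mkl1, 4 rose and 3 fell (median 0.01), Dusp4 being called (1.02). With shActb_1 3 fell (-0.07), and with shActb_2 4 rose and 3 fell (-0.05), Spry1 (-1.42), Dusp4 (1.16) and Il17rd (-1.0) being called. Of 13 genes of the cascade itself, 3 rose and 1 fell with Srf, 4 rose with Mkl1, 1 fell with shActb_1, and 6 rose and 1 fell with shActb_2. The one called was Egfr, the receptor of the EGF in the medium, with Srf (1.15).

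Of 6 ternary complex factors and cofactors tested, which include Srf itself, Elk4 rose (0.40) and Elk3 fell (-0.43) with Srf, and Srf was called lower with Srf (-1.40 at the probe used) and higher with Mkl1 (1.18). Elk3 (0.23) and Elk1 (0.32) rose with shActb_2, and Srf rose with both hairpins (0.60 and 0.75). Of 10 Creb targets tested, 4 rose and 2 fell with Srf, 1 and 4 with Mkl1, 1 and 5 with shActb_1, and 1 and 5 with shActb_2. Vgf, a neuropeptide precursor, was called with Srf (3.21) and shActb_2 (1.08), Ppargc1a was called lower in all 4 comparisons (-1.09, -1.81, -2.02 and -1.85), and Rgs2 lower in all but that with Srf (-1.82, -2.38 and -1.95). Of the Egr corepressors, Nab2, which Egr1 induces, rose with Srf (0.33) and shActb_2 (0.26), and Nab1 passed in none. Of 8 heat shock and stress genes, 4 rose and 1 fell with Srf, 3 rose with Mkl1, 1 rose with shActb_1, and 4 rose and 1 fell with shActb_2.

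Markers of other cell types moved beside these results, and fewer cells of a type and less RNA per cell cannot be told apart in such bulk samples. The summed level of 5 embryonic stem cell markers was 1.57 to 1.78 with Srf against 0.01 to 0.22 with EGFP and -0.28 to -0.22 with Mkl1, an order that Egr1 shares. Of these markers 2 of 5 rose with Srf, Esrrb by far the most (2.53), and Pou5f1, which defines the cells, was between -6.41 and -3.98 on the 12 arrays. The 4 microglia and blood markers on the array gave 0.84 to 0.91 with Srf, -0.41 to -0.25 with EGFP and -0.76 to -0.56 with Mkl1, though of the 3 tested with Srf Csf1r rose (1.44) and Aif1 fell (-1.29), with a median of -0.29. The 5 astrocyte markers gave 2.27 to 2.32, 1.50 to 1.63 and 1.14 to 1.39, but with Srf only Aldh1l1 (0.78) of the 3 tested rose and the median was -0.31. Neuron markers (7) were at 3.33 to 3.43 with Srf, 2.98 to 3.14 with Mkl1 and 3.67 to 3.77 with EGFP, and fibroblast markers (7) at 6.62 to 6.67, 6.65 to 6.91 and 7.42 to 7.43. With Srf, 2 of the 6 neuron markers tested rose and 2 fell (median -0.32), and 3 of 7 fibroblast markers rose and 2 fell (median 0.44). Of all probes 12.9% rose and 12.5% fell with Srf. Lum (4.37), among the fibroblast markers that rose, was above background on no EGFP array and was tested only through the Srf arrays. The fibroblast sum was lower with Srf while the median, which includes Lum, was above 0. The bright collagen genes Col1a2 (-1.10) and Col3a1 (-0.84) were those that fell. The 5 oligodendrocyte markers spanned 4.19 to 5.02 on the EGFP arrays alone, which holds both other groups but for part of the Mkl1 range (4.16 to 4.30), and NPC markers (10) were at 8.02 to 8.06, 8.34 to 8.39 and 8.13 to 8.22. With shActb_2, where Dusp5 rose, the NPC markers were at 8.51 to 8.52 against 7.99 to 8.01 with shEGFP and 8.10 to 8.12 with shActb_1, and the fibroblast markers at 6.35 to 6.40, 7.08 to 7.17 and 6.69 to 6.83. The neuron markers were at 3.17 to 3.29 with shActb_2, 3.70 to 3.90 with shEGFP and 3.24 to 3.33 with shActb_1, and the astrocyte markers at 1.15 to 1.28, 1.86 to 1.91 and 0.90 to 1.05. With shActb_2, 3 of the 9 NPC markers tested rose and 2 fell (median -0.19), and 1 of 6 fibroblast markers rose and 4 fell (-0.79). There 2 of 7 neuron markers fell (-0.26) and 2 of 3 astrocyte markers fell (-0.70). Of all probes 21.7% rose and 18.6% fell with shActb_2. Of the 9 NPC markers, Srf had 2 higher and 1 lower (median 0.07), Mkl1 had 1 higher and 3 lower (-0.11), and shActb_1 had 3 lower (-0.25), so that with Mkl1 and both hairpins the sum was higher while the median was below 0. The part of such differences in the levels of the immediate-early genes was not tested.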

How the data were processed

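Total RNA was labelled with cyanine 3 and hybridized to 1-colour Agilent arrays, 12 in all. Per the file headers, the authors used Feature Extraction 11.5.1.1, and they deposited its background-subtracted processed intensity for each spot, without scaling across arrays. The deposited log2 table equalled the values used here to within a constant per array. After removal of control spots and outlier flags, spots of the same probe were averaged, log2 was taken and the 75th percentile of each array subtracted. No depth applies to arrays.

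Probe accessions were matched to RefSeq transcripts (GRCm38.p6), and 50.3% of probes received a name. All 12 arrays were fitted with limma 3.58.1 (lmFit, eBayes) in R 4.3.3, 1 mean per group from the titles. Tests were two-sided and Benjamini-Hochberg adjusted over all probes tested. For a gene with more probes, the brightest represented it.

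The 10 genes and all gene lists were chosen from general knowledge with earlier results of these data known. Named were all 10 genes, Srf, Mrtfa and Actb, up to 4 called genes per list and comparison, and the 3 genes most correlated with Egr1, Nr4a1, Ier3 and Dusp5. Further genes of the lists, uncalled ones included, and single marker genes were named after their values were seen. Alternatives were the authors' log2 table, quantile normalization, normexp with an offset of 50, 2 other filters on dim probes, the compared arrays only, the arrays of slide 1 only (chosen after seeing the data), a replicate block, a variance trend with robust estimation, other thresholds, any probe of a gene, and each array left out.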

Additional observations from a re-analysis of the deposited data

Results flagged for a closer look

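Differences between groups that themselves passed the test were found for 3 of the genes. Between the arrays labelled Srf and Mkl1, Egr1 differed by 1.79 and Dusp1 by 0.28 on the log2 scale, both higher with Srf. The difference of Dusp1 passed under only 5 of 13 alternatives. Between the hairpins, Dusp5 differed by 1.43, higher with shActb_2. The effect of Srf against EGFP exceeded that of shActb_1 against shEGFP by 1.31 for Egr1, 0.91 for Dusp1 and 1.28 for Dusp5. No such difference was taken from shActb_2, with which Dusp5 rose by 1.42, beside 1.27 with Srf. The groups hold 2 arrays each, too few to look for single arrays that stand apart.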

How the results depend on the processing

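Of 932 recomputed log2 differences of single genes, 810 kept their direction and their side of the threshold, 51 passed it newly, 44 no longer passed and 27 turned in sign. With normexp, called genes numbered 1 (Srf, in place of 2), 0 (Mkl1, in place of 1), 1 (Mkl1 minus shActb_1, in place of 0) and 1 (Srf minus shActb_1, in place of 2), and with the compared arrays only 1, 0, 0 and 1. By adjusted p alone, 5 genes passed with Srf, 5 with Mkl1, 4 with shActb_2 and 2 for Srf against Mkl1, and by 2-fold alone 2 for the hairpins and 1 for Mkl1 minus shActb_1. That last count was also 1 with the filter on all 12 arrays, with the variance trend, and with the replicate block, which moved no other count of calls by more than 1.5 times. With the block, Egr1 and Egr2 newly passed for shActb_2, Nr4a1 and Ier3 for Srf minus shActb_1, Nr4a1 and Dusp5 for Mkl1 minus shActb_1, Nr4a1 for Srf against Mkl1, and Nr4a1, Ier3 and Dusp1 between the hairpins (adjusted p = 0.0143 to 0.0474), and none was lost. Same-numbered arrays correlated in their deviations from the group means at r = -0.003 to 0.26, over 0.1 in 3 of 6 comparisons, and nothing in the labels says that they share a batch. Leaving out single arrays gave 1 to 4 called genes for Srf, 0 to 1 for Mkl1 minus shActb_1 and 1 to 3 for Srf minus shActb_1, with 1 for Mkl1, for shActb_2, for Srf against Mkl1 and for the hairpins, and 0 for shActb_1. For Srf, the 1 was Dusp5, without the second Srf or the first EGFP array, and the 4 came without the second EGFP array (Egr1, Ier3, Dusp1 and Dusp5). For Srf minus shActb_1, the 1 was Egr1.

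Sign changes were confined to differences that did not pass. With normexp, Egr3 (-0.0066) and Dusp1 (-0.0019) turned for shActb_1 and Egr3 for Mkl1 minus shActb_1 (-0.0012). With quantile normalization, Dusp5 turned for shActb_1 (0.063), Egr2 (-0.10) and Ier2 (-0.015) for Srf against Mkl1, and Egr2 for Srf minus shActb_1 (-0.043). Without single arrays, the log2 differences for shActb_1 ran from -0.096 to 0.38 for Egr2, from -0.31 to 0.43 for Egr3, from -0.015 to 0.17 for Nr4a1, from -0.15 to 0.080 for Nr4a2, from -0.0039 to 0.20 for Ier3 and from -0.17 to 0.16 for Dusp5. For Srf against Mkl1 they ran from -0.15 to 0.19 for Egr2, from -0.15 to 0.23 for Ier2 and from -0.21 to 0.14 for Dusp5. For Mkl1 minus shActb_1 they ran from -0.19 to 0.28 for Egr2, from -0.52 to 1.33 for Egr3 and from -0.20 to 0.52 for Ier2, and for Srf minus shActb_1 from -0.17 to 0.31 for Egr2 and from -0.16 to 0.56 for Ier2. The cause was not tested. A slide term cannot change a comparison within a slide, nor be fitted beside shActb_2, whose slide holds no other group, and it was not run. The fits within slide 1, chosen after seeing the data, moved no count of calls by more than 1.5 times. Dim probes such as Egr3 limit what signal over background can show.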
